A study of Mus musculus with 48 samples.

Results

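The number of intact copies of Msh3 was followed through the striatal transcriptome of mice without the expanded Q140 repeat. These libraries were chosen by title: wild type (WT, 2 intact Msh3 alleles, 3 female and 4 male libraries), Msh3+/- (1 intact allele, 5 female and 4 male) and Msh3-/- (0 intact alleles, 4 female and 4 male). They make up 24 of the 48 libraries of the series. The other 24 carry the Q140 Huntington's disease knock-in allele in one copy on the same 3 Msh3 backgrounds, and were used here only for comparison. All mice were 6 months old and are given as C57BL/6, and the tissue was the corpus striatum. Apart from Msh3 and sex, the labels give no allele, transgene or agent that separates the 3 groups. How the mutant Msh3 allele was made is not given in the sources used here. The labels do not say that each library is a separate mouse, so p-values measure the spread between these libraries. Some of the 24 have codes that begin with the same stem, most of the Msh3-/- libraries but few of WT. What a stem marks is not given in the sources used here, and the main test treats all libraries as independent.

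Msh3 is the subunit that sets MutSβ apart, the mismatch repair complex that binds small loops of unpaired bases in DNA. When such loops form in a CAG repeat, MutSβ activity is known to favour further expansion of the repeat in somatic cells, and striatal neurons are a site of large somatic expansions in Huntington's disease and its mouse models. The libraries described here come from mice without the expanded repeat.

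Library depth was 37.9 to 52.6 M counts (median 45 M), and 19245 of 48795 genes had enough counts to be tested. Values per library are CPM, counts per M counts after scaling. The trend is the log2 change in level per mutant Msh3 allele, with sex as a covariate, so a trend of 1 would be a doubling for each allele lost. Its median standard error over all genes was 0.0352, and the median 95% interval reached 0.0722 to either side of the estimate. The median trend of all genes was -0.000618. A gene was called where edgeR's quasi-likelihood test gave an adjusted p under 0.05 (Benjamini-Hochberg over all genes tested).

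The trend with the number of mutant Msh3 alleles was called in 6 genes, which is 0.0312% of those tested. Msh3 itself and F2r rose with each mutant allele (0.0104%), and Rasgrf2, Cmya5, AW495222 and Sv2c fell (0.0208%). All 6 lie on chromosome 13, which holds 654 of the tested genes, and all 6 are transcribed from the minus strand, as are 49.8% of tested genes on other chromosomes, 58.3% of those within 2 Mb of Msh3 and 48.5% of those from 2 to 5 Mb. At an unadjusted p under 0.05 the trend took in 831 genes (4.32%), 349 higher (1.81%) and 482 lower (2.5%), where 962 would be met on average by chance. The called gene farthest from Msh3, Sv2c, lies 3.60 Mb away, and no gene beyond it or on another chromosome was called.

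Besides Msh3, F2r rose with mutant alleles and 4 called genes fell. The stretches just before the start sites of these 5 genes are shown because the genes share no named pathway. They come from RefSeq on GRCm38.p6, chromosome 13, minus strand, and run 5′ to 3′ up to the base before the start site, less any base in an annotated exon. Capitals mark the GC box, the letters GGGCGG or its reverse complement CCGCCC, a motif that Sp-family factors are known to bind.
Rasgrf2 (92131829 to 92132078): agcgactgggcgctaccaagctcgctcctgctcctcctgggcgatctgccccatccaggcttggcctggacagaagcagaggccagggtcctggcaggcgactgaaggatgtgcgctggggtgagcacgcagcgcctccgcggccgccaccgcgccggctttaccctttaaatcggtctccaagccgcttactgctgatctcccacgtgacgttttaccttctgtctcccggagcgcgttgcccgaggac
Cmya5 (93144725 to 93144974): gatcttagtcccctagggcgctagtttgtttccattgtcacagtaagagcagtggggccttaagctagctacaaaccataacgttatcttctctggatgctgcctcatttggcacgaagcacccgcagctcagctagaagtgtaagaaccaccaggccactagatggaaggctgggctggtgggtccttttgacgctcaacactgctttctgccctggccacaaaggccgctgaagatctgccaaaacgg
AW495222 (93719176 to 93719425): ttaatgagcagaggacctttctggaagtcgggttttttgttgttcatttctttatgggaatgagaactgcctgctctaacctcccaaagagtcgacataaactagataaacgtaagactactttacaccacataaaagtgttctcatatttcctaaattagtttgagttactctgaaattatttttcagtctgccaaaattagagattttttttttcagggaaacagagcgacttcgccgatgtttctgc
F2r (95618488 to 95618716): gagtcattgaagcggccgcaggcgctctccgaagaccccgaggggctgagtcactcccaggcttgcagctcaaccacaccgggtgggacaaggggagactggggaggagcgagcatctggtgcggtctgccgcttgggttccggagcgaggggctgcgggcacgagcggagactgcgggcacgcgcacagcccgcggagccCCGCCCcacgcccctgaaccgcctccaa
Sv2c (96132578 to 96132827): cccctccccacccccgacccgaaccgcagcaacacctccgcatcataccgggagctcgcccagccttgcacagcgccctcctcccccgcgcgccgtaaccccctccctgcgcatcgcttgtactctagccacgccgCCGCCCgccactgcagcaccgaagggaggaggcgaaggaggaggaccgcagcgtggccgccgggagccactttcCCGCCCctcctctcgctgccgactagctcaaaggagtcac
In the 250 bases before the start site, Rasgrf2, Cmya5 and AW495222 held 0 GC boxes, F2r held 1 and Sv2c held 2. Either strand of the motif was found in 32.7% of 32851 promoter windows of the same length. The same window of Msh3 held 4, a number reached or passed by 4.09% of windows; it lies wholly within an annotated exon and is not printed. The windows of Rasgrf2 and Cmya5 also differed in base composition, with 65.2% and 52.8% G or C and 22 and 7 CpG dinucleotides. The median window held 52.4% G or C and 6 CpG dinucleotides. AW495222 had 36.8% and 6. Of the 4 genes that fell, only Sv2c held the motif, and their windows ranged from 36.8% to 70.8% G or C.

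Msh3 (ENSMUSG00000014850, GRCm38 chromosome 13 from 92211872 to 92355003, minus strand) was read first as a check of the labels. Its level in WT libraries ran from 28.7 to 32.6 CPM with a median of 30.7. The libraries labelled Msh3+/- ran from 67.1 to 84.1 CPM with a median of 76.6. Those labelled Msh3-/- ran from 109 to 129 CPM with a median of 115. The 3 groups did not overlap, and the order was the reverse of the number of intact alleles. Mean levels were 30.5 ± 1.46 CPM (SD, n = 7), 76.1 ± 4.67 (n = 9) and 118 ± 6.90 (n = 8), which is 2.5 and 3.86 times the WT mean with 1 and 2 mutant alleles. The trend was 0.96 log2 units per allele (standard error 0.0520; adjusted p = 5.72e-11 by edgeR). Reads counted to the gene thus rose as intact alleles were lost; counts per gene do not show which part of the transcript they cover or whether it encodes a working protein. All directions given here follow the labels as they stand. Exchanged WT and Msh3-/- labels would turn every one of them, and that was not tested. The same rise in the group means was present in the libraries with Q140, at 32.6, 78.4 and 127 CPM.

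Each mutant allele added about the same number of Msh3 reads. The first step, from WT to Msh3+/-, was 45.6 CPM and the second, from Msh3+/- to Msh3-/-, was 41.5 CPM. The Msh3+/- mean lay 2.07 CPM above the midpoint of the other two groups, with a standard error of 2.0. On the log2 scale the same values bend: Msh3+/- stood 0.35 above the straight line (standard error 0.0342; adjusted p = 2.08e-06 by edgeR). Msh3 was the 1 gene (0.0052% of those tested) called for a departure from the line, and the next smallest adjusted p was 0.869.

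**Figure D1:**
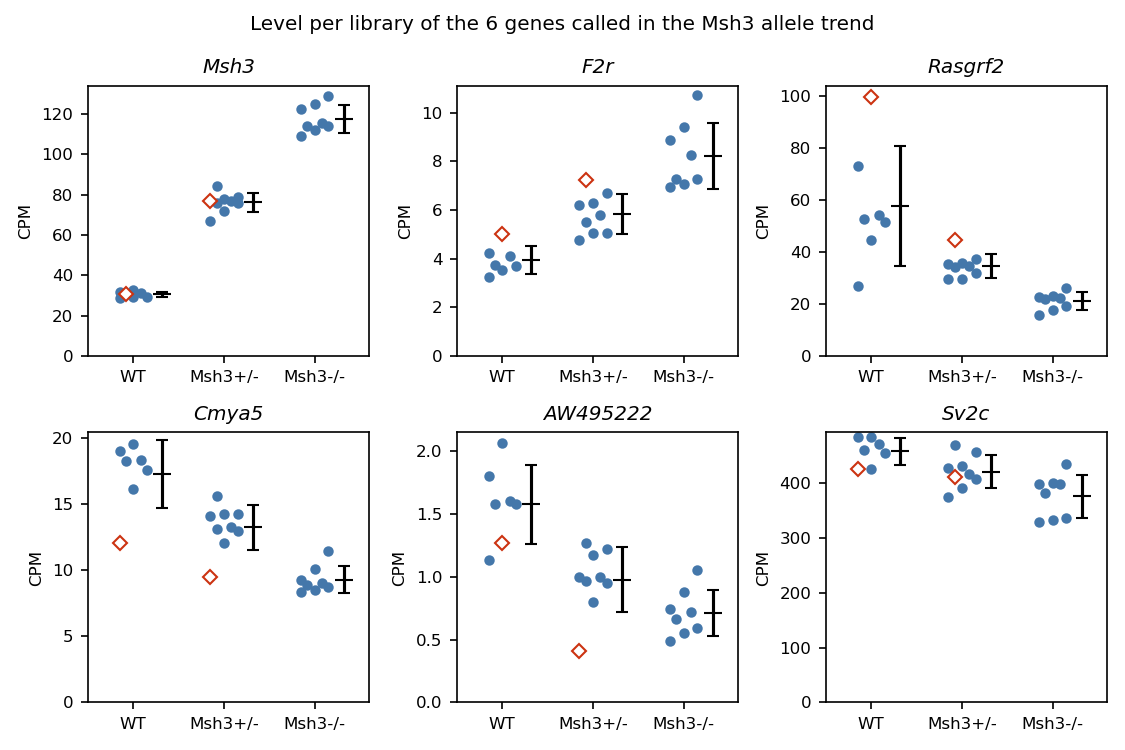
CPM in each of the 24 libraries (points) for the 6 genes called in the trend, by genotype; bars show the mean and SD of each group, and every axis starts at 0. Open diamonds are WT M3 and Msh3+/- F4, which stand at the edge of their groups for Rasgrf2, F2r and Cmya5 but within them for Msh3.

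Of the genes that fell, Rasgrf2 had the steepest trend. It encodes a calcium-regulated exchange factor that activates Ras and Rac GTPases, and its nearest end lies 0.0802 Mb from Msh3 (chromosome 13 from 91880400 to 92131656). WT libraries spread from 26.7 to 99.6 CPM with a median of 52.8. Msh3+/- libraries held 29.5 to 44.5 CPM with a median of 34.5, and Msh3-/- libraries 15.7 to 26.0 with a median of 22.2. The Msh3-/- libraries lay below all libraries of both other groups, while WT and Msh3+/- overlapped. The trend was -0.71 per allele (standard error 0.0932; adjusted p = 0.000669 by edgeR), and mean levels with 1 and 2 mutant alleles were 0.604 and 0.367 times WT. With the plate column of the well address as a covariate the trend was -0.59 with an adjusted p of 0.185.

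Cmya5 encodes myospryn, a large protein best known from striated muscle, where it binds desmin. The gene (chromosome 13 from 93040713 to 93144724, 0.686 Mb from Msh3) was read at 12.1 to 19.6 CPM in WT with a median of 18.3. Msh3+/- libraries held 9.52 to 15.6 CPM with a median of 13.3, and Msh3-/- libraries 8.33 to 11.4 with a median of 8.98. WT and Msh3-/- did not overlap, and Msh3+/- overlapped both. The trend was -0.45 (standard error 0.0479; adjusted p = 5.04e-06 by edgeR). Its steps were even on the CPM scale, with losses of 4.04 and 3.97 CPM, and the Msh3+/- mean lay within 0.0383 CPM of the midpoint. No other member of the dystrophin, desmin and muscle list was called (1 of 11 tested, median trend 0.000686), including Dmd (trend 0.01), Dtna (0.02) and Des (-0.05).

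AW495222, an antisense RNA 1.35 Mb from Msh3 (chromosome 13 from 93706182 to 93719175), was read at a low level. WT libraries held 1.13 to 2.07 CPM with a median of 1.58, Msh3+/- libraries 0.408 to 1.27 with a median of 1.0, and Msh3-/- libraries 0.487 to 1.05 with a median of 0.694. WT and Msh3-/- did not overlap. The trend was -0.57 (standard error 0.0926; adjusted p = 0.00400 by edgeR). The whole gene lies within Dmgdh on the opposite strand, and whether the counting used strand is not given in the sources used here, so reads of the pair cannot be told apart; Dmgdh was below the count filter. The call was lost with plate row as a covariate (trend -0.44, adjusted p = 0.997) and with plate column (-0.50, 0.185).

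Sv2c, a synaptic vesicle glycoprotein known for its enrichment in the basal ganglia, showed the smallest called change. Its level was 425 to 484 CPM in WT (median 459), 374 to 469 in Msh3+/- (median 417) and 329 to 434 in Msh3-/- (median 389), and all 3 groups overlapped. The trend was -0.14 (standard error 0.0241; adjusted p = 0.0103 by edgeR). None of the other 19 tested members of the synaptic vesicle list was called, and the median of the list was -0.00139. Sv2c is the least firm of the 6 calls: it was lost in 7 of 19 alternative analyses, where its trend stayed between -0.17 and -0.11.

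F2r was the only called gene besides Msh3 to rise. It encodes PAR1, the receptor cleaved by thrombin, and lies 3.25 Mb from Msh3 (chromosome 13 from 95601803 to 95618487). Its level was 3.25 to 5.02 CPM in WT (median 3.74), 4.77 to 7.22 in Msh3+/- (median 5.79) and 6.96 to 10.7 in Msh3-/- (median 7.77). WT and Msh3-/- did not overlap. The trend was 0.53 (standard error 0.0519; adjusted p = 6.74e-07 by edgeR), and the mean in Msh3-/- was 2.09 times that in WT. Of the 11 tested genes listed around thrombin signalling, F2r was the only 1 called. Serpine2, an inhibitor of thrombin, was next at 0.04 (unadjusted p = 0.0124 by edgeR). The listed genes F2, F2rl1, F2rl2 and F2rl3 were not tested. The median of that list was 0.02.

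Of all genes tested, 10 (0.052%) had WT and Msh3-/- ranges that did not overlap. The 5 called genes other than Sv2c were among them. The other 5 were not called in the trend and were named after their values were seen: Gm16485 on chromosome 9, Gm15190 on X, Fip1l1 on chromosome 5, and Zfp493 and Ipo11 on chromosome 13 at 24.4 and 14.4 Mb from Msh3. Their trends ran from -0.15 (Zfp493) to 0.14 (Gm15190), and with Q140 all 5 had an unadjusted p of 0.271 or more.

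Taken 1 step at a time, the test called only Msh3 in the first step and only Msh3 in the second, 0.0052% of genes each; 957 (4.97%) and 1034 (5.37%) genes had an unadjusted p under 0.05. F2r had steps of 0.56 and 0.49, with adjusted p of 0.113 and 0.129 by edgeR. Cmya5 had steps of -0.38 and -0.51, with adjusted p of 0.968 and 0.0786. Rasgrf2 had even log2 steps of -0.70 and -0.72, and those of AW495222 were -0.69 and -0.46. Over both steps together the same 6 genes (0.0312%) were called as in the trend. Without WT M3 the first step called Cmya5, F2r and Msh3, and so did the second.

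A pair of libraries whose codes in the labels begin MMQC (the other 22 begin Mh3Q, Msh3Q or MhCQ) stood at the edge of their groups near Msh3. In WT M3, Rasgrf2 was at 99.6 CPM against 26.7 to 72.9 in the other WT libraries, and F2r at 5.02 against 3.25 to 4.22. Cmya5 was at 12.1 CPM there against 16.1 to 19.6. In Msh3+/- F4, Rasgrf2 was at 44.5 CPM against 29.5 to 37.2, F2r at 7.22 against 4.77 to 6.70, Cmya5 at 9.52 against 12.1 to 15.6, and AW495222 at 0.408 against 0.799 to 1.27. Both libraries thus had the highest Rasgrf2 and F2r and the lowest Cmya5 of their group, while their Msh3 levels of 30.7 and 76.8 CPM ranked 4 of 7 and 4 of 9. AW495222 in WT M3 was at 1.27 CPM, within the 1.13 to 2.07 of the other WT libraries. Sv2c was the lowest of WT in WT M3, at 425 CPM against 425.5 to 484, and in Msh3+/- F4 it ranked 6 of 9 at 410 CPM. Without both libraries the same 6 genes were called, with trends of 0.95 for Msh3, 0.56 for F2r, -0.49 for Cmya5, -0.63 for Rasgrf2, -0.60 for AW495222 and -0.15 for Sv2c.

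**Figure D2:**
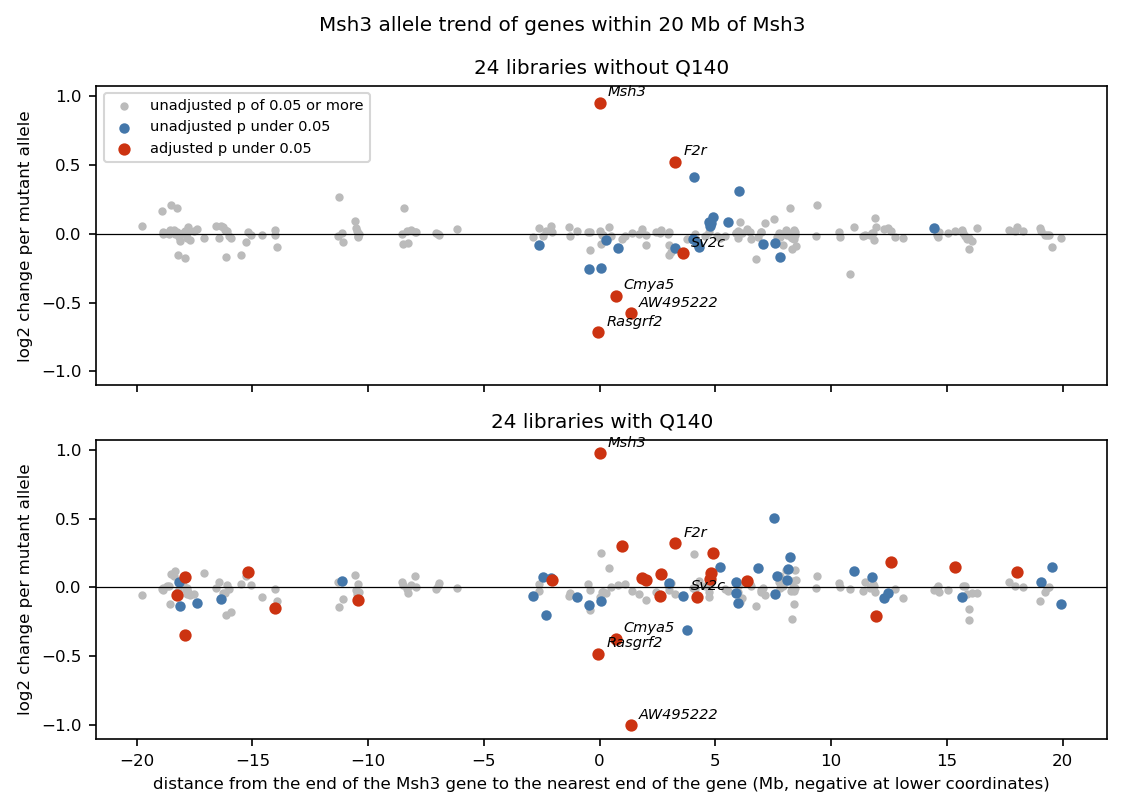
Trend per mutant Msh3 allele (log2) of the genes within 20 Mb of Msh3 against the distance between gene ends in Mb, in the 24 libraries without Q140 (top) and the 24 with Q140 (bottom); colour gives the unadjusted and adjusted p. Without Q140 all called genes lie within 3.60 Mb of Msh3, and 5 of the 6 sit at or above its coordinate.

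Genes with an unadjusted p under 0.05, the called genes included, were denser near Msh3. Among 24 tested genes within 2 Mb of Msh3, 7 (29.2%) had an unadjusted p under 0.05 and all 7 were lower with mutant alleles. From 2 to 5 Mb there were 12 of 33 (36.4%), 6 higher and 6 lower. From 5 to 10 Mb there were 5 of 56 (8.93%), from 10 to 20 Mb 1 of 97 (1.03%), and beyond 20 Mb on the same chromosome 23 of 443 (5.19%). On all other chromosomes the share was 779 of 18521 genes (4.21%). Among genes that were not called, the share was 4 of 21 (19.0%) within 2 Mb and 10 of 31 (32.3%) from 2 to 5 Mb. No other chromosome had more than 5.23% of its genes below that p, against 7.35% for chromosome 13 without Msh3. A change that follows from the loss of Msh3 and a difference carried on the chromosome with the mutant allele cannot be told apart in these libraries.

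**Figure D3:**
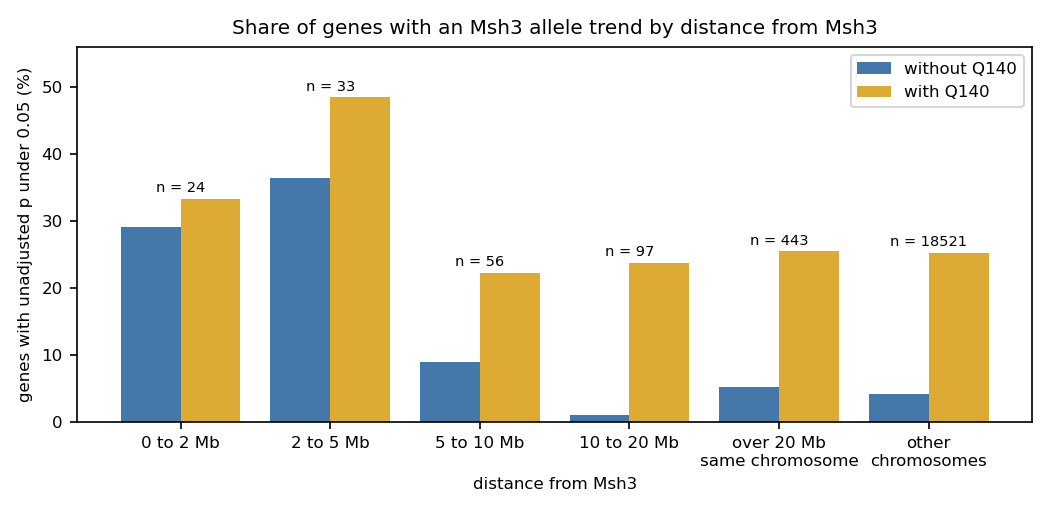
Share of tested genes (%) with an unadjusted p under 0.05 in the trend, by distance from Msh3, without Q140 (blue) and with Q140 (yellow); n is the number of genes tested without Q140. Within 5 Mb the blue bars reach 29.2% and 36.4%, against 4.21% on other chromosomes.

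Of the 24 neighbours within 2 Mb, 3 were called and 17 had an unadjusted p of 0.05 or more. Another 4 genes with an unadjusted p under 0.05 missed the threshold: Papd4, a poly(A) polymerase (20.3, 20.2 and 17.6 CPM in the 3 groups; trend -0.11), Serinc5, a membrane protein (105, 97.3 and 97.5 CPM; -0.05), and the transcripts 4833422C13Rik (-0.26) and C030017D09Rik (-0.25). Scamp1, a membrane protein of secretory vesicles, had a trend of 0.03, and Homer1, a scaffold of glutamate receptors, -0.04. Arsb, a lysosomal sulphatase, was at 127, 123 and 128 CPM. Mtx3, Jmy, Ssbp2, Zcchc9, Atg10 and Zfyve16 all had trends between -0.02 and 0.02. Ankrd34b, only 0.0709 Mb from Msh3, was at 25.3, 22.8 and 22.9 CPM (-0.07, unadjusted p = 0.101).

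From 2 to 5 Mb, 11 of the 12 genes with an unadjusted p under 0.05 lay at higher coordinates, where 26 of the 33 genes tested lie. The smallest p among those not called was that of Enc1, an actin-binding kelch protein of neurons, at 315, 354 and 372 CPM; its trend of 0.12 had an unadjusted p of 0.000633 and missed the threshold, and with Q140 it was 0.25 (adjusted p = 0.000109 by edgeR). Col4a3bp, which carries ceramide between membranes, was at 82.3, 78.5 and 74.8 CPM (-0.07), and with Q140 also had a trend of -0.07. Ankdd1b was scarcely expressed, at 0.239, 0.304 and 0.429 CPM (0.41). Hapln1, a link protein of the perineuronal matrix and the farthest of these on the lower side, was at 19.6, 18.7 and 17.6 CPM (-0.08).

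The 24 libraries with Q140 share no library with the 24 without, and gave the same direction for all 6 called genes. Still, 13 libraries without Q140 and 12 with it have codes that begin with the same 10 stems, and what a stem marks is not given in the sources used here. F2r had a trend of 0.32 there (adjusted p = 0.000118), Cmya5 -0.37 (6.34e-06), Rasgrf2 -0.48 (0.000141) and AW495222 -1.0 (2.64e-09), all by edgeR. Sv2c was at -0.06 with an adjusted p of 0.149. In the 12 Q140 libraries whose stem does not occur without Q140 (6, 2 and 4 with 0, 1 and 2 mutant alleles), the trends were 1.01 for Msh3, 0.25 for F2r, -0.32 for Cmya5, -0.43 for Rasgrf2, -0.95 for AW495222 and -0.03 for Sv2c. There too the first 5 were called by edgeR and Sv2c was not. In all 24 libraries with Q140, 10.7% of genes were called and 25.1% had an unadjusted p under 0.05. Of the 57 genes within 5 Mb, 19 had an unadjusted p under 0.05 without Q140 and 24 with it. The 10 genes in both are 52.6% of the first set and 41.7% of the second, and all 10 had the same direction in both. On other chromosomes 205 genes were in both sets, and 104 of these had the same direction.

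The size of the trend differed with the repeat for 1 of the 6 called genes. AW495222 stood at 2.84, 1.58 and 0.692 CPM with Q140 against 1.58, 0.977 and 0.712 without, and its trend was steeper by -0.42 (standard error 0.122; adjusted p = 0.0460 by edgeR). For F2r the difference was -0.21 (adjusted p = 0.103), for Rasgrf2 0.23 (0.307), for Cmya5 0.08 (0.615), for Sv2c 0.08 (0.291) and for Msh3 0.02 (0.929). Over all genes 532 (2.66%) were called for this difference.

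Outside the neighbourhood the closest approach on the same chromosome was Nnt, 27.0 Mb from Msh3, which encodes the proton-driven transhydrogenase of the inner mitochondrial membrane. Its level was 25.1 to 38.8 CPM in WT (median 30.2), 27.1 to 46.3 in Msh3+/- (median 37.1) and 34.2 to 47.7 in Msh3-/- (median 44.9). The trend of 0.23 missed the threshold (unadjusted p = 0.000515; adjusted p = 0.999 by edgeR), and DESeq2 gave an adjusted p of 0.0314. With Q140 the trend was also 0.23, with an adjusted p of 0.00832 by edgeR; in the 12 Q140 libraries with unshared code stems it was 0.24 and missed the threshold (adjusted p = 0.0893). The values left a gap between 38.8 and 44.1 CPM, noticed after they were seen. Above it stood 0 of 7 WT, 3 of 9 Msh3+/- and 6 of 8 Msh3-/- libraries, and with Q140 0 of 8, 3 of 8 and 6 of 8. C57BL/6J mice are known to carry a deletion within Nnt, and the labels name the strain only as C57BL/6; the Nnt allele of each mouse was not tested.

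**Figure D4:**
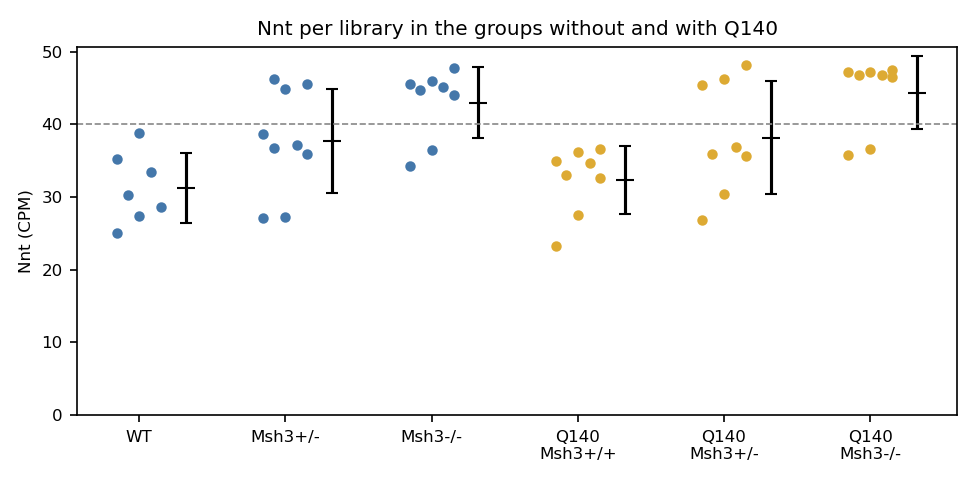
Nnt in CPM for every library of the 6 groups (points; bars show the mean and SD), with a dashed line at 40 CPM in the gap of the values. Above the line are 0, 3 and 6 libraries without Q140 and 0, 3 and 6 with it, in the order of mutant Msh3 alleles.

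Off chromosome 13 no gene was called. The smallest p belonged to Gm16233, an antisense RNA on chromosome 3 at 0.741, 0.572 and 0.394 CPM (trend -0.45, unadjusted p = 0.000182, adjusted p = 0.501 by edgeR). Osmr, the oncostatin M receptor, followed at 5.15, 4.29 and 3.91 CPM (-0.20). Mafa, a transcription factor, was at 1.89, 1.77 and 1.40 CPM (-0.23), and Gm527 at 2.76, 3.12 and 3.44 CPM (0.16). Gm16485 had a trend of 0.10 and the pseudogene Gm12642 one of 0.52. Gm12642 was scarcely read in the libraries with Q140, at group means of 0.199, 0.158 and 0.218 CPM in the order of mutant alleles. All of these genes had adjusted p above 0.5 by edgeR without Q140. In the libraries with Q140, Gm16233 (-0.26) and Gm12642 (0.07) had the same direction while Osmr, Mafa, Gm527 and Gm16485 (-0.01) did not.

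No DNA repair gene on the lists other than Msh3 was called. In the mismatch repair list only Msh3 was called among 17 tested genes, and the median trend was 0.01 against -0.000618 for all genes. Msh6, the mismatch-binding subunit of the related complex MutSα, was at 19.3 ± 0.972, 18.9 ± 1.38 and 19.6 ± 1.39 CPM in WT, Msh3+/- and Msh3-/- (SD), with a trend of 0.01. Mlh3 and Pms2, which act downstream in MutL complexes, were both at -0.01. Fan1, a nuclease known to oppose repeat expansion, was at 0.01. None of 18 base excision and nucleotide genes and none of 16 break repair genes was called or had an unadjusted p under 0.05. Of 20 p53 and DNA damage genes 0 were called by edgeR, with 3 at an unadjusted p under 0.05: Gadd45b (0.12), Ei24 (0.03) and Cdkn1a (-0.11). Over all genes tested the share at that p was 4.32%.

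Medium spiny neurons, the main cell type of striatum, showed no called change in identity genes. In the shared list 0 of 29 genes were called by edgeR (1 at an unadjusted p under 0.05), with a median trend of 0.01. Ppp1r1b, which encodes DARPP-32, was at 2055 ± 141, 2134 ± 114 and 2144 ± 137 CPM, and Pde1b had a trend of 0.02. Among genes of direct-pathway neurons 0 of 10 were called (1 unadjusted, Slc35d3), with Tac1 at 0.04. Among those of indirect-pathway neurons 0 of 8 were called (0 unadjusted), with Drd2 at 0.01 and Penk at 0.01. DESeq2 called no member of these 3 lists either. Of the 21 activity-regulated genes 0 were called and 18 had a trend below 0, with a median of -0.04 against -0.000618 for all genes. Egr1 was at 599 ± 224, 498 ± 91.6 and 475 ± 101 CPM, so the spread within WT was larger than the difference.

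Of 21 interferon-response genes 0 were called by edgeR and 0 had an unadjusted p under 0.05, with a median trend of 0.03. Of 26 nuclear genes of the respiratory chain 0 were called and 2 had an unadjusted p under 0.05, Uqcrfs1 (0.04) and Uqcrc2 (0.03), both of complex III. The 13 genes encoded in mitochondrial DNA had a median trend of 0.000138, and 0 were called or had an unadjusted p under 0.05. The 23 tested genes of cholesterol synthesis and uptake had a median trend of -0.01, with 0 called by edgeR and 1 at an unadjusted p under 0.05. Among 15 exchange factors of Ras and Rap only Rasgrf2 was called; its paralogue Rasgrf1 was at 450 ± 37.5, 440.1 ± 18.0 and 420 ± 18.6 CPM, a trend of -0.05 (unadjusted p = 0.0245). DESeq2 called no gene of these lists other than Rasgrf2.

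**Figure D5:**
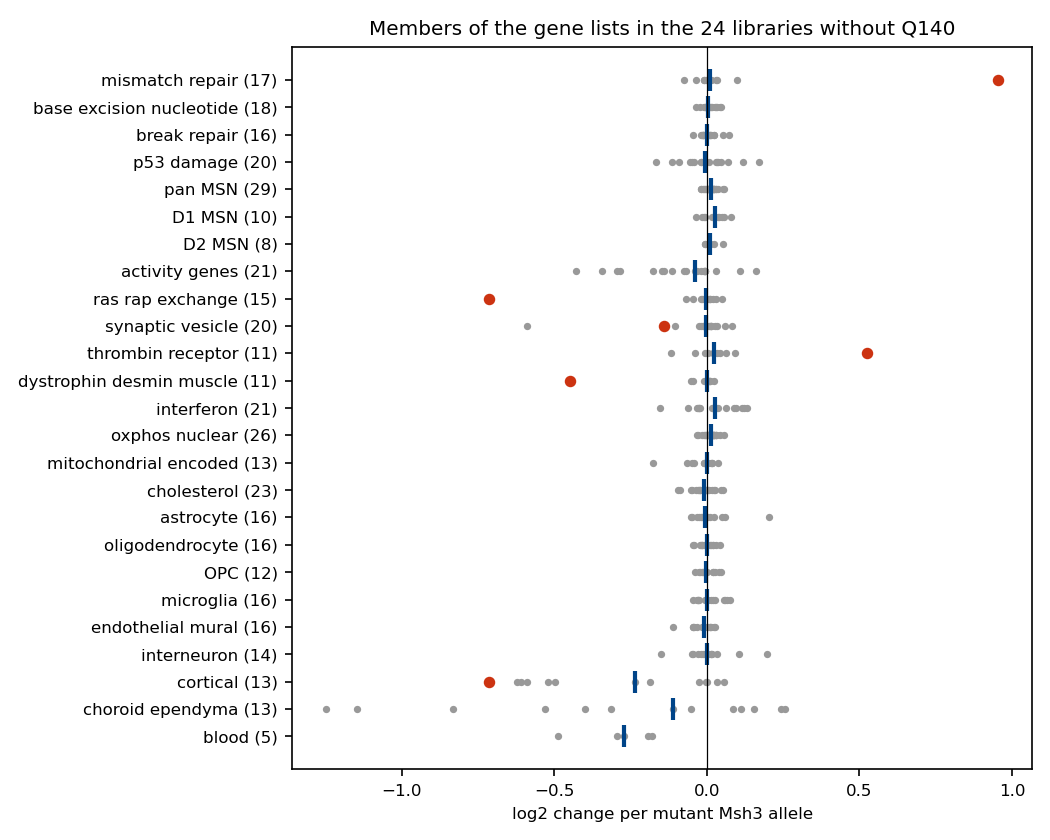
Trend per mutant allele (log2) of each tested member of the 25 gene lists (grey points; red where called), with the list's median as a blue bar and the number tested in brackets. Only Msh3, Rasgrf2, Sv2c, F2r and Cmya5 are red, and 22 of 25 medians lie within 0.05 of 0.

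Markers of glia and vessels had medians close to 0: -0.00727 for astrocytes, -0.000985 for oligodendrocytes, -0.00298 for their precursors, 0.00118 for microglia and -0.00962 for endothelial and mural cells, with 0 members called and 3 with an unadjusted p under 0.05. Of the 12 cell type lists, none had summed levels that separated the 3 groups. The cortical list, which holds Rasgrf2, had a median trend of -0.23. Of the 12 other cortical markers 9 were below 0 and 0 were called by edgeR. The 2 with an unadjusted p under 0.05 were Fezf2, which was lower, and Foxp2, which was higher (0.06). Foxp2 is also in the shared list of medium spiny neurons. The summed level of the cortical list was 2350 to 2689 CPM in WT, 2347 to 2726 in Msh3+/- and 2285 to 2683 in Msh3-/-. Slc17a7, a defining cortical marker, was at 10.6 ± 10.3, 19.5 ± 34.4 and 5.17 ± 1.42 CPM. In bulk tissue fewer cells of a type and less RNA per cell cannot be told apart. Choroid plexus and ependymal markers summed to 231 to 1071 CPM in WT, 217 to 303 in Msh3+/- and 230 to 296 in Msh3-/-. Of these 13 markers 5 were lower at an unadjusted p under 0.05 and 0 were called, where 2.5% of all genes tested were lower at that p. The highest sum was that of WT M2 at 1071 CPM, the next WT library holding 525. Members of a list are read from the same libraries, so such counts are not of independent genes. Blood genes summed to 0.312 to 29.3, 0.175 to 18.9 and 0.180 to 15.3 CPM, and 0 of 5 were called or had an unadjusted p under 0.05. No marker was at 0 in all 24 libraries; those at 0 in at least 1 were Ccdc153 and Tmem212 of ependyma and Alas2, Hbb-bt and Hba-a2 of blood. The part of these cells in the trends of Rasgrf2 and Sv2c was not tested. WT F3 and WT M2 stood apart in summed microglial and choroid plexus markers. Msh3+/- F5 had the highest cortical sum of its group, 2726 CPM, with 2616 CPM in the next. Leaving out WT F3, WT M2 and Msh3+/- F5 together was not planned, and 5 of the 6 genes then stayed called. Rasgrf2 had a trend of -0.82, and Sv2c missed the threshold at -0.13 (adjusted p = 0.111 by edgeR).

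No gene was called for a difference of the trend between the sexes. The test of the difference called 0 genes (0%) in edgeR's quasi-likelihood fit under either scaling, with 1565 genes (8.13%) at an unadjusted p under 0.05 and a smallest adjusted p of 0.0588. Msh3 had trends of 0.97 in females and 0.94 in males, F2r 0.62 and 0.44, and Cmya5 -0.47 and -0.43. Rasgrf2 had the widest gap, -0.49 and -0.90, with an unadjusted p of 0.0247 and an adjusted p of 0.573 for the difference. In females alone 3 genes were called (0.0154%) and in males alone 11 (0.0577%); Msh3, F2r and Cmya5 were called in both.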

How the data were processed

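RNA sequencing counts of 48 striatal libraries were read from the deposited table, which holds whole-number read counts per gene made by the authors without scaling. The deposited FPKM table, in which the authors divided counts by gene length and by library total, served as an alternative. STAR 2.7.5c, SAMtools 1.10 and HTSeq 0.12.3 are named in the submitters' processing notes, with GRCm38 and mm10; the annotation release and strand setting are not given in the sources used here. Libraries were prepared with a stranded TruSeq protocol after RNeasy extraction, per the labels' protocols. Coordinates came from GENCODE M21 for 19175 of 19245 tested genes.

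Counts of the 24 libraries without Q140 entered edgeR (4.0.16; R 4.3.3) after filterByExpr by group (minimum count 10, minimum total 15) and TMM scaling (factors 0.977 to 1.03); robust glmQLFit had sex and the number of mutant Msh3 alleles as terms, tested by glmQLFTest (two-sided). Untested genes held 0.048% of counts. Departure from the line, both steps, the sex difference, the Q140 trend and its difference were fitted likewise. Promoter windows were matched in RefSeq for 6 of 6 called genes. Alternatives were RLE scaling, library totals, DESeq2 1.42.0, other filters, limma 3.58.1 on log2 FPKM with offsets of 0.1 and 1, other covariates and blocks, all 48 libraries, each sex alone and leaving out libraries; the pipeline was tested on simulated data. The groups, the 25 gene lists and all tests were chosen with earlier results of these data known. Named genes are Msh3, every called gene, the 6 nearest misses, the 6 smallest p off chromosome 13, neighbours within 2 Mb, and up to 3 members of each list by p; other genes were named after their values were seen.

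Same-numbered libraries of different groups were not paired: over 22 pairs their deviations correlated at -0.126 to 0.19, median 0.0377. In an alternative limma-voom fit with the code stem as a random block, the correlation within stems was 0.19. A few named genes are left out of the text.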

Additional observations from a re-analysis of the deposited data

Results flagged for a closer look

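Single libraries stood far from the rest of their group in 4 of 81 groups of values looked at, where about 1 in 20 would be met by chance. Enc1 was at 440.6 CPM in Msh3+/- F1, the next highest Msh3+/- library holding 367. Osmr was at 7.07 CPM in WT F3, the next WT library holding 5.46. The same library, WT F3, had the highest summed microglial markers of WT, 752 CPM against 610 in the next. WT M2 had the highest summed choroid plexus and ependymal markers, 1071 CPM against 525.

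For 4 genes the trend differed between libraries with and without Q140 by edgeR's test of the difference itself, among 30 tests of a difference looked at. Over all genes 532 (2.66%) were called for this difference. Osmr, Gm527 and Mafa had been chosen for their small p without Q140. The difference (with minus without) was -0.42 for AW495222 (adjusted p = 0.0460), a gene that fell in both sets. It was 0.29 for Osmr (adjusted p = 0.0137), -0.21 for Gm527 (adjusted p = 0.0296) and 0.91 for Mafa (adjusted p = 0.000119). Mafa was at 0.487, 0.820 and 1.28 CPM with Q140 against 1.89, 1.77 and 1.40 without.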

How the results depend on the processing

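The trend called 6 genes, and 3 to 11 over 19 alternatives: 3 in females alone, 11 in males alone, 8 with DESeq2 (Nnt and Tmem181c-ps added), 5 without sex, 5 on FPKM without a filter, 4 with plate column and 4 with plate row. All 6 kept their direction throughout. Msh3, F2r and Cmya5 were called in 19 of 19 alternatives, Rasgrf2 in 17, AW495222 in 15 and Sv2c in 12. Leaving out 1 library called 6 to 7 genes, 1 to 3 for the first step, 1 to 3 for the second and 5 to 6 for both together. In the first step F2r joined without Msh3-/- F3 or Msh3+/- F5. In the second, Cmya5 joined without Msh3-/- F4 or Msh3+/- F4, and Sv2c without Msh3-/- F3; without WT M3, F2r and Cmya5 joined in both. With a replicate block the trend called 6 genes and Msh3-/- against WT 5, and 9 of 23 libraries correlated best with their own number. With RLE scaling 2022 genes were called in the trend with Q140 (2070 with TMM) and 540 for the difference (532). In the 12 Q140 libraries with code stems of their own, a subset chosen after seeing the data, 1288 were called. How far depth limits genes near 1 CPM, such as AW495222, was not tested. The cause of the lost calls was not tested.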

Other observations

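In males alone 11 of 19080 genes (0.0577%) were called by edgeR, and 1562 (8.19%) had an unadjusted p under 0.05. In females alone 799 of 19466 genes (4.1%) had an unadjusted p under 0.05. Besides Msh3, F2r and Cmya5 the calls in males held 8 genes, and 7 of them lie off chromosome 13. Of these, Spry4, Gpr63, Gpr101, Cdh4, Palmd and Dnajb5 fell with mutant alleles and Nrep rose. Spry4, an inhibitor of receptor tyrosine kinase signalling, was at 9.78 to 11.7 CPM in the 4 WT males, 6.47 to 9.47 in the 4 Msh3+/- males and 5.98 to 6.82 in the 4 Msh3-/- males. The 3 male groups overlapped only between Msh3+/- and Msh3-/-. In females the means were 8.25 ± 1.81, 8.92 ± 1.52 and 10.1 ± 0.641 CPM (SD, n = 3, 5 and 4). The trend of Spry4 was -0.39 in males and 0.14 in females, and the difference had an adjusted p of 0.0588 by edgeR, past the threshold only before adjustment.

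Gpr63, an orphan receptor, had means of 15.3, 11.1 and 9.36 CPM in males and 10.7, 10.7 and 11.7 in females (adjusted p of the difference 0.0614 by edgeR). Gpr101, another orphan receptor, had 19.4, 12.1 and 10.7 CPM in males and 9.76, 12.9 and 13 in females (adjusted p = 0.118 by edgeR). Among WT libraries Gpr101 was at 17.5 to 21.6 CPM in males and 9.39 to 10.4 CPM in females. The gene was chosen for its call in males alone, and how many genes separate the WT sexes this way was not counted. None of these differences of the trend between the sexes passed the threshold. They rest on 3 WT females and 4 WT males.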
